A study of Rattus norvegicus with 6 samples.

Results

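The immediate early transcription factors of rat atrial fibroblasts were examined as 10 genes chosen by name: Fos, Fosb, Fosl1, Fosl2, Jun, Junb, Jund, Egr1, Ier2 and Myc. All 10 were present among the 40154 genes of the deposited count table, and all 10 passed the filter on low counts, which left 14852 genes to test. One of them, Jun, was higher in the cells transfected with si-GPD1L, by 1.31-fold. The other 9 had adjusted p-values above 0.05, a threshold that 6.36% of all genes tested passed. The call of Jun was lost without si-GPD1L replicate 1 (adjusted p of 0.077 in edgeR) or replicate 2 (0.0794).

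The cells were atrial fibroblasts of Sprague-Dawley rats aged 1 to 3 days, separated from atrial myocytes by letting non-myocytes attach for 1.5 h, and grown in medium with 10% fetal bovine serum. The si-NC group received a negative-control siRNA and the si-GPD1L group an siRNA against Gpd1l, the gene of a glycerol-3-phosphate dehydrogenase-like protein, with 3 libraries in each group. Both groups were collected 24 h after transfection, and the labels of all 6 libraries give the genotype as the siRNA and the treatment as "Atrial differentiation". The sources used here do not say whether the libraries of a group came from separate cultures or animals, or whether the number in a library's name marks a different siRNA, so the p-values measure the spread between these libraries, which may be technical.

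Immediate early genes are switched on within minutes of a stimulus such as serum, growth factors or stress, without new protein synthesis, and most return to a low level soon afterwards. Kinases of the ERK, JNK and p38 cascades act on serum response factor, its ternary complex partners and CREB or ATF proteins that already sit on their promoters. FOS and JUN proteins pair through leucine zippers to form AP-1, whose best known site is TGACTCA on either strand. Each FOS protein needs a JUN partner, whereas JUN proteins also pair with each other. EGR1 is a zinc finger factor, IER2 a small nuclear protein, and MYC a helix-loop-helix factor that drives growth and ribosome production and pairs with MAX. In fibroblasts these genes are known for the response to serum and wounding, and in cultured cardiac cells for the response to stretch and to angiotensin II. The libraries hold a single time point, 24 h after transfection.

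Promoter sequences, 250 bases before to 50 after the gene start, were matched by symbol and gene number for 7 of the 10 members in the RefSeq table of the rat build GRCr8. Fos, Jun and Myc had no entry. The windows below are all those with a CArG box or TGACGTCA, while sites of the other motifs searched are not shown. Capitals mark the motif, each window is 30 bases long, and positions are counted from the start site.
Egr1, CArG box from -105, chr18:26736963-26736992, plus strand: gtcggtccttCCATATTAGGgcttcctgct
Egr1, CArG box from -83, chr18:26736985-26737014, plus strand: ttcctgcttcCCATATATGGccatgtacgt
Ier2, TGACGTCA from -66, chr19:40399296-40399325, plus strand: tggcgtttcagTGACGTCActcttactcta
Jund, TGACGTCA from -221, chr16:18769974-18770003, minus strand: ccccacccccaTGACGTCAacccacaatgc

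The CArG box (CC, then 6 bases that are A or T, then GG), the site of serum response factor, was found in 1 of the 7 member promoters, that of Egr1, where it occurred at 2 places, and in 1.64% of all 33469 promoters of the same length. TGACGTCA, the site of CREB and ATF proteins, was found in 2 of the 7, those of Ier2 and Jund, and in 1.83% of all promoters. The AP-1 site TGACTCA and the MYC site CACGTG were in none of the 7, against 4.63% and 6.42% of all promoters. Of the EGR1 sites, GCGTGGGCG was in the promoter of Jund and in 0.544% of all, and GCGGGGGCG was in that of Fosl2 and in 2.73% of all. The core of the interferon-stimulated response element was in the promoter of Fosb (3.92% of all) and the STAT letters TTCNNNGAA in that of Ier2 (8.87% of all). Both strands were searched, and no site in these 7 promoters overlapped a site of another motif. A match of letters is a description of the window only.

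The libraries held 16892255 to 20149732 counts. Of the 14852 genes tested, 945 (6.36%) passed at an adjusted p-value under 0.05 (quasi-likelihood test of edgeR, the test behind every adjusted p given here unless another is named), with 599 (4.03%) higher in si-GPD1L and 346 (2.33%) lower. The normalized counts of the 2 groups did not overlap for 29% of the genes tested. Gpd1l itself had 265, 314 and 321 raw counts in si-NC against 202, 229 and 303 under the si-GPD1L label, a log2 fold change of -0.31 ± 0.15 (SE, with an adjusted p of 0.234 in edgeR), so the difference in the target did not pass the test. All 12 fibroblast markers passed the filter, and 2 of them, Dcn and Lum, were lower in si-GPD1L. Summed marker levels are in deposited TPM, a scale on which the same count rate per kilobase reads higher in si-GPD1L (2.48 to 2.51 TPM for 1 CPM, against 2.21 to 2.45 in si-NC), while the calls are on counts. All 15 interferon-stimulated genes listed were higher in si-GPD1L, with a summed level of 121 to 122.5 TPM in si-NC and 1300 to 1617 TPM in si-GPD1L. Some of these 15 passed the filter on low counts only through the si-GPD1L libraries. Of 11 endothelial markers tested, 5 were higher and none lower, and the 12 listed markers summed to 38.0 to 51.6 TPM in si-NC and 64.6 to 72.5 TPM in si-GPD1L. The summed macrophage markers overlapped between the groups (261.8 to 298.7 and 240.4 to 341.6 TPM, 0 of 12 called in edgeR, 1 at an unadjusted p under 0.05, 2 with groups that did not overlap). Cardiomyocyte markers summed to 3237 to 3367 and 3000 to 3190 TPM (1 of 12 lower), and smooth muscle and pericyte markers to 8870 to 9488 and 8658 to 9106 TPM (2 of 12 higher, 1 lower). With 1 library left out at a time, all 15 interferon-stimulated genes and 0 macrophage markers were called in each fit. The calls ran from 2 to 7 for endothelial markers (lowest without si-GPD1L replicate 2, highest without si-NC replicate 3). They ran from 1 to 6 for fibroblast markers and for smooth muscle and pericyte markers (in both lists highest without si-NC replicate 1), and from 0 to 5 for cardiomyocyte markers (highest without si-NC replicate 3). No marker of these lists was at 0 in every library. The part of these cells in the results below was not tested, and in bulk RNA fewer cells of a type and less RNA per cell cannot be told apart.

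**Figure D1:**
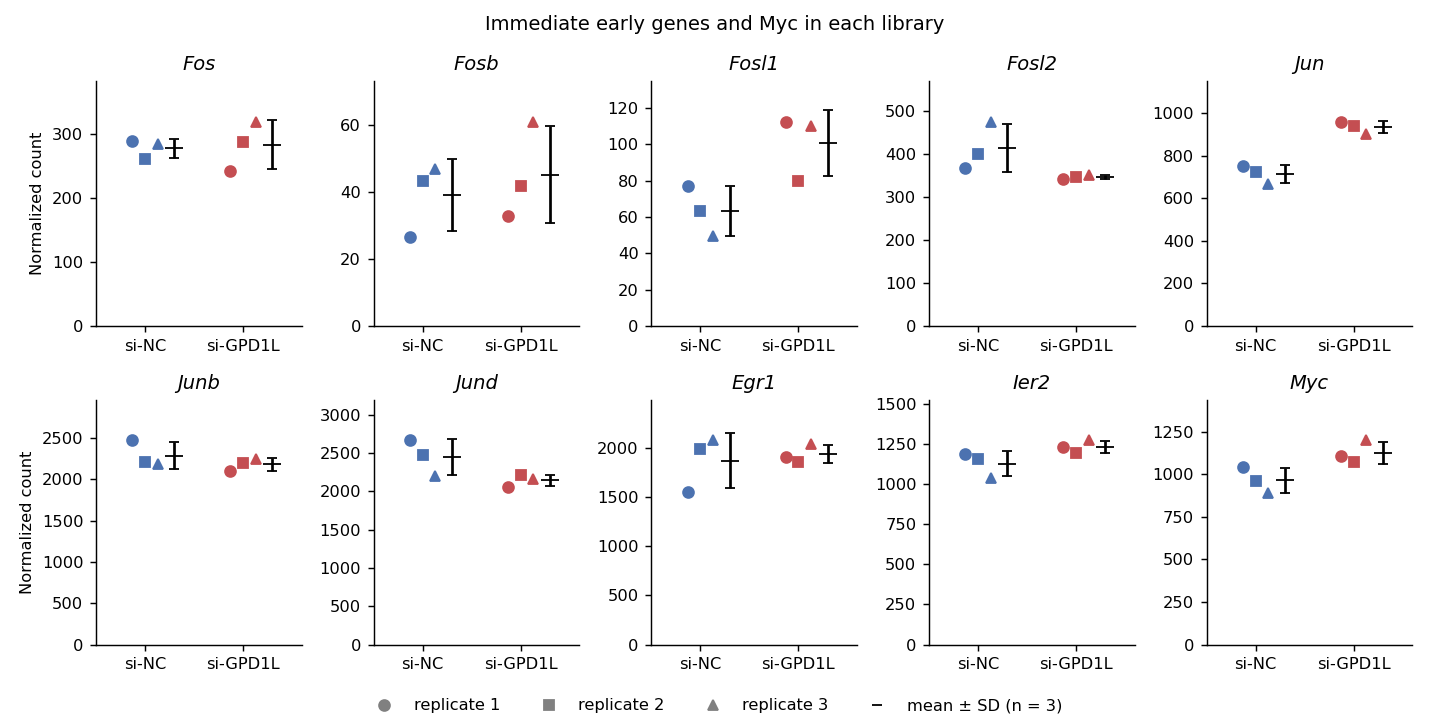
Normalized count (linear axis from 0) of each member in the 3 si-NC (blue) and 3 si-GPD1L (red) libraries, marked by replicate number, with the mean ± SD beside each group. The si-GPD1L libraries lie above all si-NC libraries for Jun (902 to 959 against 669 to 751), Fosl1, Ier2 and Myc. They lie below all si-NC libraries for Fosl2, and the groups overlap for the other 5 genes. Over all genes tested, the groups did not overlap for 29%.

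Among the JUN genes, which every AP-1 dimer needs, Jun alone passed the test. Jun (NCBI gene 24516, chr5:114011184-114014277 on the minus strand in rn6) had 751, 724 and 669 normalized counts in the si-NC libraries (replicates 1, 2 and 3, as in all values below) and 959, 942 and 902 in the si-GPD1L libraries. The 3 si-GPD1L libraries were all above the 3 si-NC libraries. The mean rose from 715 ± 42.2 to 934 ± 29.2 (SD, n = 3 in each group), a log2 fold change of 0.39 ± 0.076 (SE, with an adjusted p of 0.0102 in edgeR). The 95% interval runs from 16.6% to 46.7% above the si-NC level. That made 1 of 10 members called, against 6.36% of all genes, and Jun did not reach the study's second threshold, an absolute log2 fold change over 1, which 1.62% of all genes and 0 of the 10 members passed together with the first. The call was lost without either of 2 si-GPD1L libraries. Leaving out si-GPD1L replicate 1 gave an adjusted p of 0.077 at a log2 fold change of 0.37, and leaving out si-GPD1L replicate 2 gave 0.0794 at 0.38.

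Junb and Jund, the JUN genes of higher level, did not pass. Junb (NCBI gene 24517, chr19:26092972-26094756, minus strand), which often acts as the weaker partner that restrains c-Jun, had 2470, 2207 and 2182 normalized counts in si-NC and 2094, 2193 and 2247 in si-GPD1L. The groups overlapped, and the log2 fold change was -0.070 ± 0.073 (SE, with an adjusted p of 0.623 in edgeR). Its 95% interval reaches from 14.6% below to 6.31% above si-NC. Jund (NCBI gene 24518, chr16:20485028-20486707, minus strand), the member expressed in resting cells, had 2668, 2482 and 2205 normalized counts in si-NC and 2064, 2211 and 2165 in si-GPD1L. Only si-NC replicate 3 lay within the si-GPD1L range. Its log2 fold change was -0.19 ± 0.079 (SE, with an adjusted p of 0.178 in edgeR), with an interval from 22.3% to 1.29% below si-NC. Without si-NC replicate 3 the value was -0.26 and the adjusted p-value 0.0496.

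The FOS genes held the largest and the least certain differences. Fosl1 (FRA-1, NCBI gene 25445, chr1:220826560-220835066, plus strand) is a FOS member that lacks a strong activation domain and lasts longer after a stimulus. It had 77.1, 63.5 and 49.8 normalized counts in si-NC and 112, 80.0 and 110 in si-GPD1L. The groups did not overlap, but si-GPD1L replicate 2 lay only just above si-NC replicate 1. The mean was 63.5 ± 13.7 in si-NC and 101 ± 18.0 in si-GPD1L (SD, n = 3), a log2 fold change of 0.66 ± 0.21 (SE, with an adjusted p of 0.0788 in edgeR). The 95% interval runs from 15.8% to 116% above si-NC. Leaving out si-NC replicate 1 gave an adjusted p of 0.0159, and it was also under 0.05 in edgeR's exact test (0.0269) and without a filter on low counts (0.0109). With 51 to 110 raw counts in a library, counting error alone gives a coefficient of variation of 12.6% in si-NC and 9.98% in si-GPD1L.

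Fosl2 (FRA-2; NCBI gene 25446, chr6:25598936-25616995, minus strand), the FOS gene of the highest level here, had 368, 399 and 474 normalized counts in si-NC and 342, 345 and 350 in si-GPD1L. The si-GPD1L libraries were nearly equal and all below si-NC, whose highest library was replicate 3. The mean was 414 ± 54.8 in si-NC and 346 ± 4.04 in si-GPD1L (SD, n = 3), a log2 fold change of -0.26 ± 0.11 (SE, with an adjusted p of 0.175 in edgeR), with an interval from 28.7% to 1.85% below si-NC. Without si-NC replicate 1 the log2 fold change was -0.34 and the adjusted p-value 0.0292. The deposited model of Fosl2 counts 976 bases, and reads also counted toward its shorter transcript numbered 154, 138 and 182 in si-NC and 132, 132 and 148 in si-GPD1L, beside 314 to 486 for the longer.

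Fos (NCBI gene 314322, chr6:109300433-109303299, plus strand), the founding member and the classic serum-response gene, had 289.7, 261 and 284 normalized counts in si-NC and 243, 287 and 319 in si-GPD1L. The si-GPD1L libraries spanned the whole si-NC range. The log2 fold change was 0.027 ± 0.12 (SE, with an adjusted p of 0.922 in edgeR), and the interval reaches from 14.5% below to 21.3% above si-NC. Its sign turned when si-NC replicate 2 (-0.018) or si-GPD1L replicate 3 (-0.070) was left out. Fosb (NCBI gene 100360880, chr1:80214691-80221417, minus strand) was near the bottom of the measurable range, with 26.7, 43.4 and 46.8 normalized counts in si-NC and 32.7, 41.8 and 60.9 in si-GPD1L. The groups overlapped, with a log2 fold change of 0.22 ± 0.29 (SE, with an adjusted p of 0.713 in edgeR) and an interval from 24.9% below to 79.7% above si-NC. Its coefficient of variation was 27.6% in si-NC and 31.9% in si-GPD1L, where counting alone gives 16.1% and 14.8%. Without si-GPD1L replicate 3 the value was -0.059. An antisense non-coding gene overlaps Fosb and held at most 5 counts in a library.

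Egr1 (NCBI gene 24330, chr18:27657903-27660101, plus strand), whose promoter carries the CArG boxes shown above, had 1549, 1982 and 2074 normalized counts in si-NC and 1909, 1853 and 2035 in si-GPD1L. Si-NC replicate 1 stood below the other 5 libraries, which lay between 1853 and 2074. The log2 fold change was 0.049 ± 0.099 (SE, with an adjusted p of 0.820 in edgeR), and without si-NC replicate 1 it was -0.071. The 95% interval with all libraries reaches from 10.9% below to 20.1% above si-NC.

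Ier2 (NCBI gene 494344, chr19:25774146-25775670, minus strand) had 1187, 1159 and 1040 normalized counts in si-NC and 1232, 1196 and 1274 in si-GPD1L. The groups did not overlap, but the lowest si-GPD1L library lay just above the highest si-NC library, and the log2 fold change of 0.13 ± 0.075 (SE, with an adjusted p of 0.337 in edgeR) did not pass. Myc (NCBI gene 24577, chr7:102586313-102591240, plus strand) had 1042, 961 and 893 normalized counts in si-NC and 1110, 1071 and 1200 in si-GPD1L. Here too every si-GPD1L library was above every si-NC library. The mean was 965 ± 74.6 in si-NC and 1127 ± 66.2 in si-GPD1L (SD, n = 3), a log2 fold change of 0.22 ± 0.080 (SE, with an adjusted p of 0.124 in edgeR), with an interval from 3.40% to 31.8% above si-NC. Without si-NC replicate 1 the log2 fold change was 0.28 and the adjusted p-value 0.0117.

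**Figure D2:**
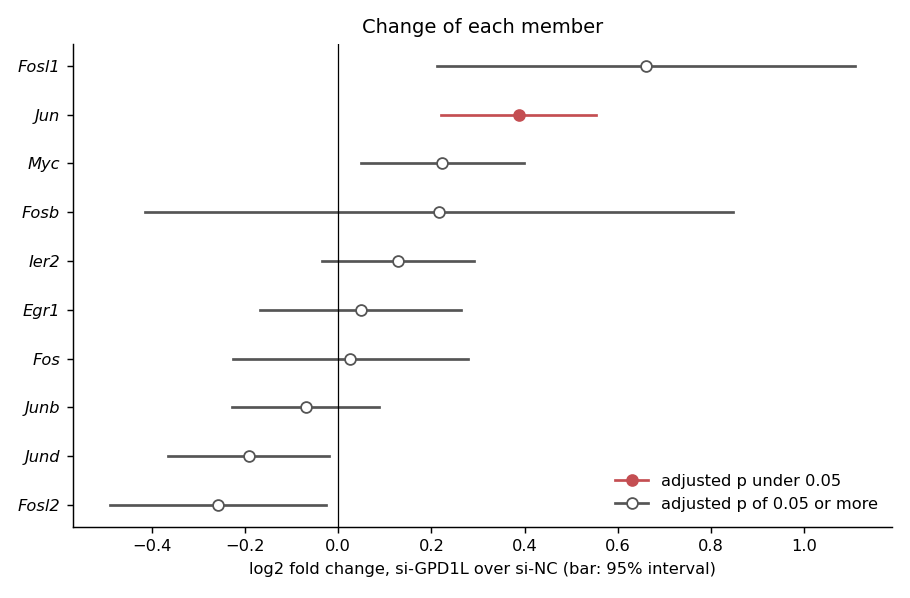
Log2 fold change of each member in si-GPD1L over si-NC (points) with its 95% interval (bars), from edgeR's quasi-likelihood fit, ordered by size; the filled red point has an adjusted p-value under 0.05. Jun stands at 0.39, Fosl1 at 0.66 has a wider interval, and the intervals of Fosb, Ier2, Egr1, Fos and Junb include 0.

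Of the 10 members, 7 had a log2 fold change above 0 and 3 below, against 49.1% of all genes above 0, with a median of 0.089 beside -0.0049 over all genes tested. The groups did not overlap for 5 members, 4 of them higher and 1 lower, where 29% of all genes did not overlap (15.1% higher, 13.9% lower). Unadjusted p-values were under 0.05 for 5 members, against 22.4% of all genes. Si-NC replicate 1 differed more from the other si-NC libraries (chi-square per degree of freedom 21.7 and 30.3) than these did from each other (9.09). Without it 4 members, Jun, Fosl1, Fosl2 and Myc, were called among 10.1% of all genes, and without si-GPD1L replicate 1 or 2 none was, among 2.41% and 2.39% of all genes. Without si-NC replicate 3 Jund joined Jun, at 9.57% of all genes.

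Levels of different genes were compared on the deposited TPM values, which are counts per length scaled to a common sum. In si-NC the order from the top was Jund (186 ± 10.7 TPM), Junb (164 ± 3.34), Egr1 (157 ± 30.4), Ier2 (94.6 ± 4.37), Fosl2 (54.4 ± 9.45), Myc (52.6 ± 1.83), Jun (29.5 ± 0.948), Fos (22.4 ± 1.15), Fosl1 (4.85 ± 0.830) and Fosb (1.55 ± 0.488; SD, n = 3 throughout). The ranges of Junb and Egr1 overlapped, as did those of Fosl2 and Myc, and the other neighbours were apart. Jund (174 to 193 TPM) and Egr1 (123 to 180 TPM), not neighbours in this order, overlapped too. The place of Egr1 below Jund and Junb was therefore not resolved in si-NC. In si-GPD1L the order was the same but for 2 exchanges of neighbours, with Egr1 (172 ± 8.31 TPM) above Junb (165 ± 6.68) and Myc (65.2 ± 3.84) above Fosl2 (48.1 ± 0.765), but the ranges of Jund (165 to 179), Egr1 (165 to 181) and Junb (158 to 171) all overlapped there, so the order of these 3 was not resolved in si-GPD1L. Jund stood above 93.8% to 95.1% of all genes tested in the 6 libraries, Fos above 57.5% to 64.1%, and Fosb above 11.9% to 20.3%.

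The members' TPM values were used for order and shares, not for a test of their levels between the groups, because the same count rate per kilobase (1 CPM) was worth 2.21 TPM in si-NC replicate 1, 2.41 and 2.45 in the other si-NC libraries, and between 2.48 and 2.51 in si-GPD1L. The same gene therefore reads higher in si-GPD1L on that scale.

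**Figure D3:**
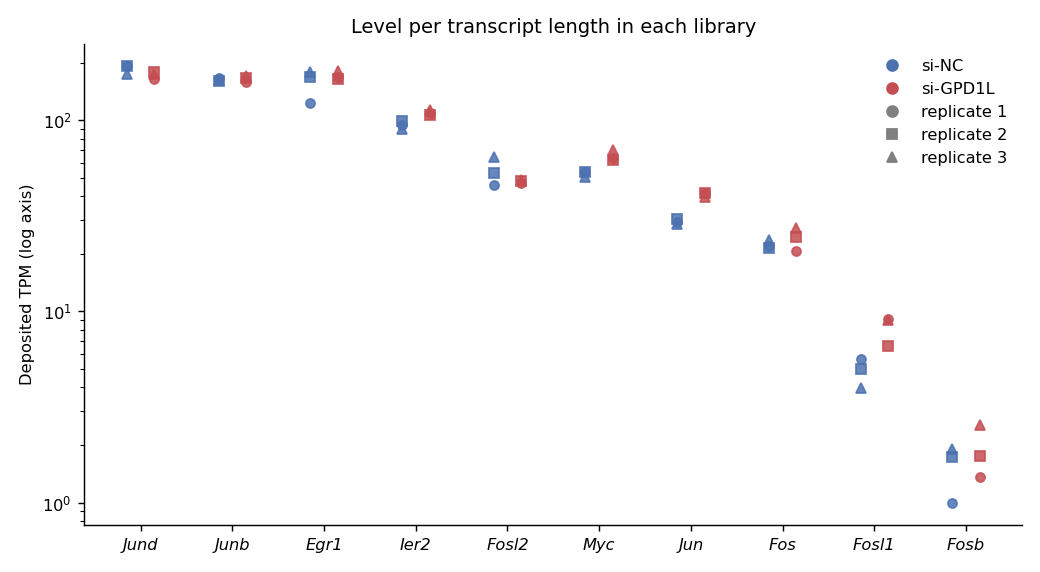
Deposited TPM (log axis) of each member in every library, ordered by the si-NC mean, with si-NC in blue and si-GPD1L in red. Jund, Junb and Egr1 lie between 123 and 193 TPM, and Fosb lies between 0.994 and 2.54 TPM.

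Within a library the scaling cancels in a share or a ratio of 2 genes. Of the summed TPM of the 3 JUN genes, Jun took 7.55%, 7.94% and 7.86% in si-NC and 11.4%, 10.7% and 10.3% in si-GPD1L. Jund took 49.4%, 50.1% and 47.7% in si-NC and 45.3%, 46.2% and 45.4% in si-GPD1L. Both shares separated the groups, while that of Junb (41.9% to 44.4% in si-NC, 43.1% to 44.3% in si-GPD1L) did not. The shares of a family have a fixed sum within a library, so a rise in any share must lower others. The separations of Jun and Jund are therefore not independent. Of the 4 FOS genes, Fosl2 made up 65.1% ± 3.58 in si-NC and 58.5% ± 2.47 in si-GPD1L, Fos 27.1% ± 2.34 and 29.3% ± 2.60, Fosl1 5.96% ± 1.67 and 9.98% ± 1.78, and Fosb 1.84% ± 0.434 and 2.27% ± 0.594 (SD, n = 3 in each group).

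A total of 5 ratios, chosen after their values were seen, were compared by an exact permutation test (two-sided), for which a design of 3 libraries against 3 cannot go below p = 0.10. A ratio already seen to separate the groups can only give that p-value, so the test adds nothing to the values. The adjustment covers the 5 chosen ratios only. The TPM ratio of Jun to Junb was 0.176, 0.189 and 0.177 in si-NC and 0.264, 0.248 and 0.232 in si-GPD1L, a difference of 0.46 on the log2 scale (exact p = 0.10, 0.125 after Benjamini-Hochberg adjustment over the 5). The ratio of Jun to Jund differed by 0.58, that of Fosl1 to Fosl2 by 0.92 and that of Fosl1 to Fos by 0.66 on the log2 scale, each higher in all 3 si-GPD1L libraries, with the same p-values. The ratio of Myc to Egr1 overlapped between the groups (exact p = 0.40).

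**Figure D4:**
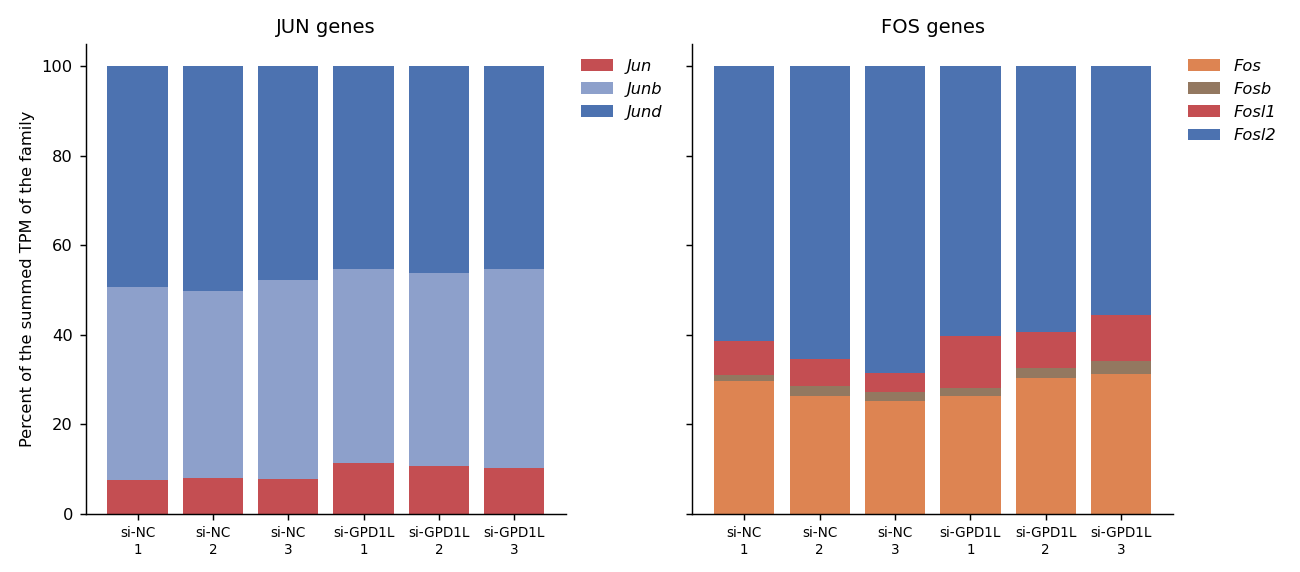
Share of each gene in the summed TPM of the JUN genes (left) and the FOS genes (right), 1 bar for each library. Jun takes 7.55% to 7.94% of the JUN bars in si-NC and from 10.3% up to 11.4% in si-GPD1L. Fosl2 takes the largest part of each FOS bar.

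The members also differed in how much they varied within a group. In 8 of the 10 the SD of the log2 normalized counts was larger in si-NC than in si-GPD1L, and the median over all genes tested was also larger in si-NC (0.155 against 0.0996). For Egr1 it was 0.226 in si-NC and 0.069 in si-GPD1L, and for Fosl2 0.187 and 0.0168. Fos went the other way, with 0.0785 in si-NC and 0.198 in si-GPD1L, where its coefficient of variation of 13.5% was above the 5.91% that counting gives. Si-NC replicate 1 was the highest si-NC library for Fos, Fosl1, Jun, Junb, Jund, Ier2 and Myc and the lowest for Fosb, Fosl2 and Egr1.

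As a description over the 6 libraries, which share their groups and the culture, deviations from the group means were correlated between members. The strongest Pearson r values were -0.922 (Fosl2 and Jun), 0.919 (Ier2 and Myc) and -0.916 (Fosl2 and Jund). Next came 0.88 (Fosl1 and Ier2), 0.877 (Fosl1 and Myc) and -0.877 (Fosl2 and Ier2). Taking out the group means leaves fewer than 6 free values. Among 11874 other genes above a mean normalized count of 50, those most like Jun over the 6 libraries were Il1rap (r = 0.998) and Ddost (r = 0.998). Il1rap, the accessory chain of the interleukin-1 receptor, rose by 0.72 on the log2 scale (edgeR, adjusted p of 0.00243). Ddost had a log2 fold change of 0.23 (edgeR, adjusted p of 0.0652). Both were picked for likeness to Jun, whose libraries separate the groups. A group difference therefore comes with the choice, and these p-values are no independent support. Most like Myc were Psme3 (r = 0.974), C1H10orf76 (r = 0.973) and Prpf31 (r = 0.967), most like Fos were Fnbp1l (r = 0.996), Rasl11a (r = 0.982) and B4galt4 (r = 0.979), and most like Egr1 were RGD1310429 (r = 0.999), Crtc3 (r = 0.989) and Tmem127 (r = 0.987). None of these last 9 genes had an adjusted p-value under 0.05. They were picked for likeness to members that were not called, so this too comes largely with the choice.

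Earlier results of these data were known when the lists below were drawn up. The called share of a list, set beside that of all genes, is therefore a description only, and enrichment was not tested. Around the members, 9 lists of partners, regulators and targets held 177 genes tested, of which 20 (11.3%) had an adjusted p-value under 0.05, 13 higher and 7 lower, beside 6.36% of all genes. Their median log2 fold change was 0.029. Batf2, among those higher, passed the filter on low counts only through the si-GPD1L libraries. The number fell to 9 without si-GPD1L replicate 1 or 2, to 10 without si-GPD1L replicate 3 and to 13 without si-NC replicate 2, and was 40 without si-NC replicate 1.

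Of 22 AP-1 partners and other basic leucine zipper genes tested, 2 rose and 2 fell (18.2%, beside 6.36% of all genes, median -0.042). That share describes a list drawn up with earlier results known. The 4 calls became 7 without si-NC replicate 1 and 2 without any single si-GPD1L library. Batf2, a BATF factor known to be induced by interferon, had 0.989, 4.23 and 0 normalized counts in si-NC and 33.8, 40.0 and 43.9 in si-GPD1L. Its log2 fold change was 4.45 (adjusted p = 0.000245) and ran from 3.88 to 6.00 over the 14 alternatives that held it. Batf2 passed the filter on low counts only through the si-GPD1L libraries, so it could enter the count of calls only as a higher gene. Atf3, a stress-induced partner of JUN, rose from a mean of 117 ± 14.9 to one of 176 ± 8.43 (SD, n = 3, normalized counts, log2 fold change 0.59 ± 0.14 SE, with an adjusted p of 0.0250). Cebpb, a factor of inflammatory and adipogenic programmes, fell by 0.48 (adjusted p = 0.00513) and Maf fell by 0.37 (adjusted p = 0.0357). Atf3 lost its call without any single si-GPD1L library (adjusted p = 0.0726, 0.131 and 0.0761 without replicates 1, 2 and 3), and Maf without any single library other than si-NC replicate 1 (adjusted p from 0.0541 to 0.197).

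The other immediate early genes moved both ways. Of 42 tested, 6 rose and 2 fell (19%, beside 6.36% of all genes, median 0.092), and the groups did not overlap for 20 of them, where 29% of all genes did not overlap. Both comparisons describe a list drawn up with earlier results known. The 8 calls became 14 without si-NC replicate 1 and 4 without any single si-GPD1L library. Dusp1, the phosphatase that inactivates p38, JNK and ERK, had 1919, 1755 and 1745 normalized counts in si-NC and 1051, 1133 and 1226 in si-GPD1L, or a log2 fold change of -0.67 ± 0.078 (SE, with an adjusted p of 0.000169 in edgeR). Id1, an inhibitor of helix-loop-helix factors and a BMP target, rose from 627 ± 7.74 to 933 ± 86.5 (log2 fold change 0.57, adjusted p = 0.00122). Klf2 and Klf4, zinc finger factors that restrain inflammation and proliferation, rose by 0.50 (adjusted p = 0.00301) and 0.39 (adjusted p = 0.00615). The calls of these 4 genes held in all 15 alternatives. Klf2 and Id1 are also expressed in endothelium, of whose 11 tested markers 5 rose, and the part of those cells was not tested.

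Upstream of the members, 0% of the serum response factor list, 5% of the MAP kinase cascade and 15.4% of ERK feedback inhibitors were called. Over all genes 6.36% were called, and 22.4% had an unadjusted p under 0.05 in edgeR. None of the 8 genes of serum response factor, its cofactors and the ternary complex factors passed in edgeR (0 also at an unadjusted p under 0.05), and the smallest p-value was that of Elk4, with a log2 fold change of 0.19 (adjusted p = 0.285). Of 20 genes of the MAP kinase cascade, Map2k1, which encodes the ERK kinase MEK1, rose from a mean normalized count of 1836 ± 2.15 to one of 2163 ± 28.2 (SD, n = 3, log2 fold change 0.24 ± 0.063 SE, with an adjusted p of 0.0458), a call lost in 10 of 15 alternatives (adjusted p from 0.00609 to 0.224). Of 13 ERK feedback inhibitors, Spry2 fell by 0.25 (adjusted p = 0.0368) and Dusp4 rose by 0.37 (adjusted p = 0.0394). Both calls were lost without si-NC replicate 2 and without any single si-GPD1L library, with adjusted p-values up to 0.185 and 0.19, and under the replicate block (0.0598 and 0.0511). In the EGR family with its NAB co-repressors 0 of 4 tested passed in edgeR (2 at an unadjusted p under 0.05), and Nab2, an inhibitor of EGR1 that EGR1 itself induces, had 2369, 2238 and 2358 normalized counts in si-NC and 1935, 1829 and 2083 in si-GPD1L (log2 fold change -0.25 ± 0.072 SE, with an adjusted p of 0.0566). It passed in 5 of 15 alternatives, with an adjusted p as low as 0.0132 when si-NC replicate 1 was left out.

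**Figure D5:**
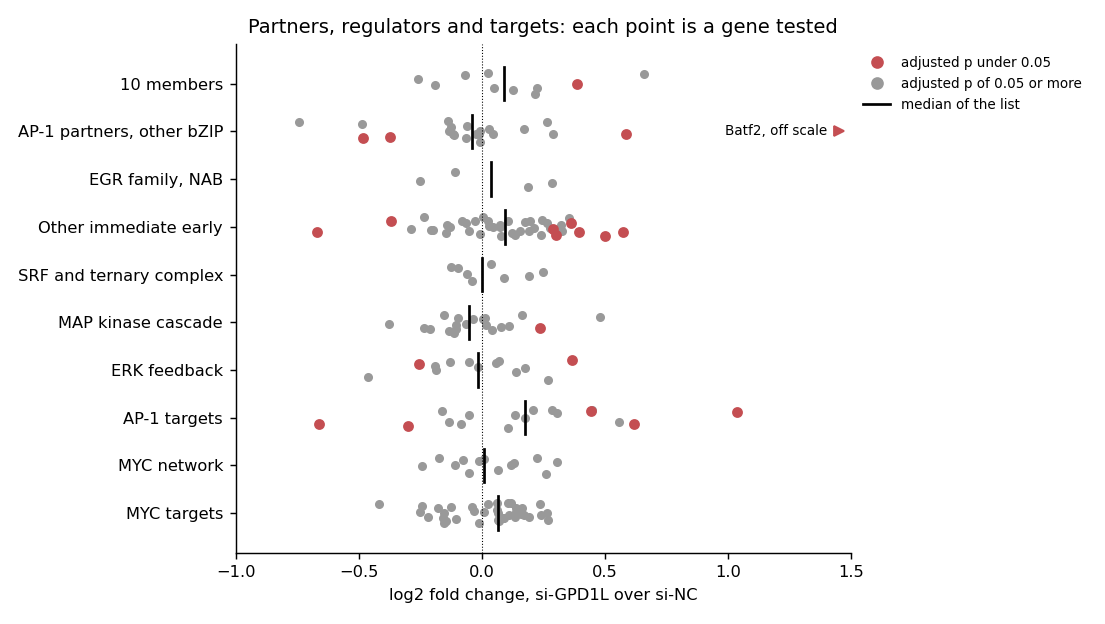
Log2 fold change (si-GPD1L over si-NC) of every gene tested in the members and the 9 lists around them; red points have an adjusted p-value under 0.05, black bars are list medians, and Batf2 at 4.45 lies off the axis. Red points lie on both sides of 0 in the leucine zipper, immediate early, ERK feedback and AP-1 target lists. There are none in the EGR, serum response factor, MYC network and MYC target lists.

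Of 17 AP-1 target genes tested, 3 rose and 2 fell (29.4%, beside 6.36% of all genes, median 0.174). This list too was drawn up with earlier results known, so its share is a description, and enrichment of AP-1 targets was not tested. The 5 calls became 7 without si-NC replicate 1, and 3 when si-GPD1L replicate 1 or 2 was left out. Ccnd1, a cyclin of G1, had 2295, 2423 and 2556 normalized counts in si-NC and 5404, 4958 and 4561 in si-GPD1L. Its log2 fold change was 1.04 (adjusted p = 2.95e-06 in edgeR). Ezr, the membrane-cytoskeleton linker ezrin, rose by 0.44 (adjusted p = 0.00208). Dcn, the proteoglycan decorin and a fibroblast marker, fell by 0.66 (adjusted p = 0.0129), a call lost without si-GPD1L replicate 1 (0.0564) or 2 (0.0842). Collagenase and stromelysin genes that are textbook AP-1 targets could not be tested, since Mmp3, Mmp10 and Mmp13 had at most 3 counts in any library. Of 13 genes of the MYC network and 38 MYC targets none passed in edgeR, where 6.36% of all genes did. At an unadjusted p under 0.05 there were 2 and 8, beside 22.4% of all genes. The medians were 0.010 and 0.067, with ranges from -0.24 to 0.30 and from -0.42 to 0.27. The smallest p-values were those of Mlx, a partner of the MYC-related factors (log2 fold change -0.24, adjusted p = 0.0797), and Bop1, a ribosome biogenesis gene (log2 fold change 0.26, adjusted p = 0.0546). Among MYC targets 8 passed when si-NC replicate 1 was left out, 3 when si-NC replicate 3 was left out, 3 with no filter, 2 in edgeR's exact test and 1 in DESeq2's Wald test. In that order, these fits called 10.1%, 9.57%, 7.74%, 10.3% and 7.91% of all genes. In the MYC network 2 passed with no filter and 1 when si-NC replicate 3 was left out. Heat shock genes, which can also rise when cells are stressed by handling, had 0 of 8 called in edgeR, beside 6.36% of all genes. At an unadjusted p under 0.05 there was 1, and the median log2 fold change was 0.063. The lowest adjusted p among them was that of Hspa1a, at 25.3 ± 7.18 normalized counts in si-NC and 43.4 ± 4.71 in si-GPD1L (log2 fold change 0.78, adjusted p = 0.114). The part of handling stress was not tested.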

How the data were processed

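The authors deposited raw read counts per gene and per transcript for 6 libraries of polyadenylated RNA, together with TPM values (counts per length, scaled to a common sum). The submitters' processing notes name HISAT2 2.1.0, HTSeq 0.12.4 and rn6; the strand setting is not given in the sources used here. The authors' tables of their own comparison (log2 fold changes, p-values and q-values) and of GO and KEGG enrichment were not used.

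Gene counts were filtered with filterByExpr, normalized by TMM and compared with the quasi-likelihood F test of edgeR 4.0.16 (R 4.3.3), with Benjamini-Hochberg adjustment over all 14852 genes. A gene was called at an adjusted p-value under 0.05; the study's second threshold is an absolute log2 fold change above 1. Each normalized count is a count scaled to the mean library size. Standard errors are the log2 fold change divided by the square root of F, and 95% intervals are not adjusted for the number of genes. SDs of log2 values and correlations used a pseudocount of 1. A gene with 0 counts in a library may have up to 3, and such limits cover counting error only. Figures were drawn with matplotlib 3.10.9.

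The members and lists were chosen with earlier results of these data known. The genes named are the 10 members, Gpd1l, at most 4 called genes with the smallest adjusted p per list (or else the gene with the smallest p), and the 3 genes most like each of Fos, Jun, Egr1 and Myc. One gene that this rule names is not reported here. Mmp3, Mmp10 and Mmp13 and the values by single library were added after the data were seen. Alternatives were other normalizations (DESeq2 size factors, upper quartile), filters, tests (DESeq2 1.42.0, edgeR's exact test), transcript counts summed per gene, the replicate number as a block, and each library left out. The test was tested on simulated data with 200 changed genes. Within each group the counts of any pair of libraries were further apart than sampling noise allows. Each library was counted as 1 sample, though this spread may be technical and does not show that the cultures were separate.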

Additional observations from a re-analysis of the deposited data

How the results depend on the processing

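All 10 members kept their direction in the 9 alternatives that used every library, and 7 of 10 also in the 6 fits that left out 1 library. Without a filter 1929 genes had an adjusted p-value under 0.05 (1055 higher, 874 lower; 40 lower past both thresholds), 2 members were called, with Fosl1 at 0.66, and 32 genes of the 9 lists. The filter of 10 counts in every library left 10 genes lower past both thresholds. The exact test called 1528 genes (656 lower, 38 past both thresholds) and 2 members, with Fosl1 at 0.66. Without a filter the exact test gave 530 lower genes (39 past both thresholds) and 2 members, Fosl1 again at 0.66. Summed transcript counts called 623 genes, 198 of them lower (11 past both thresholds). Upper-quartile normalization called 981 genes, 53.6% of them higher against 63.4% with TMM. The cause of these shifts was not tested.

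With 1 library left out at a time, the genes called ran from 361 to 1531 (299 to 861 higher, 53 to 670 lower, 6 to 28 lower past both thresholds), the members called from 0 to 4, and the list genes called from 9 to 40. Log2 fold changes ran from 0.34 to 0.42 for Jun, 0.51 to 0.83 for Fosl1, -0.34 to -0.15 for Fosl2, -0.26 to -0.13 for Jund and 0.17 to 0.28 for Myc. They crossed 0 for Fos (-0.070 to 0.12), Fosb (-0.059 to 0.39) and Egr1 (-0.071 to 0.13), and for the genes most like them: Fnbp1l (-0.050 to 0.14), Rasl11a (-0.15 to 0.17), B4galt4 (-0.14 to 0.11), RGD1310429 (-0.079 to 0.16), Crtc3 (-0.15 to 0.21) and Tmem127 (-0.084 to 0.072). Rasl11a was also at -0.00044 and Tmem127 at -0.011 under upper-quartile normalization, and Rasl11a at -0.090 in summed transcripts.

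The libraries share only a replicate number. Deviations of same-numbered libraries correlated at 0.0398, -0.00362 and 0.0468, and not every library correlated best with its own number. With the replicate block 921 genes were called, and Jun was at 0.39 (adjusted p = 0.0127). Counting error was largest for Fosb and Fosl1 among the members, and both varied more between libraries than counting gives.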
